A study of Mus musculus with 198 samples.

Results

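The mouse gene models described here are those whose symbol ends in Rik, 1917 of the 21056 gene bodies with a value in all 8 deep libraries and both sequence contexts. A symbol of this form is the clone number of a full-length cDNA sequenced at RIKEN from libraries of many mouse tissues, and it serves as a placeholder until a locus is given a descriptive name. Of 2547 such symbols in the table, 630 lacked a value in some library or context, 610 of them in all 16 columns, and these are not described. The members were chosen by name and by having all values, not by the size of any value. The name rule itself was set with earlier results of these data known.

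The 8 libraries came from cortex of C57BL/6J mice at 8 weeks, from 4 wild-type animals (WT) and 4 animals that carry a heterozygous knockout of Dnmt3a (hKO), with 2 males and 2 females in each group. The labels describe the tissue as taken from littermates and name no driver that would restrict the deletion to a cell type. Whole-genome bisulfite sequencing gave, for each gene body, how many of its cytosines, in percent, were read as methylated where an A follows (mCA) and where a G follows (mCG). The labels give a coverage of 6.4 to 7.8 genome equivalents per animal, and the depth behind single values is unknown, so none has a counting interval. The labels name a second sequencing instrument for the females, so instrument and sex cannot be told apart, and both are balanced over genotype. The libraries are of bulk tissue, in which a lower level in a cell type and fewer cells of that type cannot be told apart. Of 28 measured neuronal, glial and vascular marker genes, 26 had a lower mean mCA in hKO and 21 passed the test used below. Over all genes, 97.6% had a lower mean and 72.1% passed as lower. WT levels of the markers ran from 0.240% to 5.33%. Dnmt3a itself, at which methylation does not measure the deletion, had mCA values of 1.14%, 1.04%, 1.52% and 1.30% in WT replicates 1 to 4 and of 0.794%, 0.715%, 0.881% and 0.655% in hKO replicates 1 to 4.

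Methylation at CA sites is laid down in neurons after birth by the methyltransferase DNMT3A and reaches a high level in adult brain. Methylation at CG sites is present in nearly all cells and is kept through cell division by DNMT1. In gene bodies, low CG methylation is typical of CG islands, stretches rich in CG sites that often hold promoters or lie in loci of developmental regulators such as the Hox clusters.

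RefSeq names, taken from a table of the GRCm38.p6 assembly and used for names, classes and gene order only, were found for 1744 members. Of these, 953 kept the clone name and 791 now have another symbol, while 170 matched no entry and 3 matched several genes. By class, 965 members are protein-coding genes, 746 are long noncoding RNAs (lncRNAs), 23 are pseudogenes and 10 are other RNAs. The kept names are mostly noncoding (614 lncRNAs against 311 coding genes), and the replaced names are mostly coding (654 against 132).

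Promoter sequences are shown for 4 lncRNA members as examples, because the sequence sets how many CG sites there are to methylate. C130071C03Rik and C130021I20Rik had few methylated CG sites, while 9230117E06Rik and B130006D01Rik had large falls in mCA. The windows run from 250 bases before to 50 after the most upstream RefSeq start, are written 5′ to 3′ on the gene's strand and have every CG in capitals. All 4 genes lie on the plus strand of GRCm38.p6, at chr13:83721131-83721430, chr2:33640943-33641242, chr16:22511230-22511529 and chr11:95723336-95723635, in the order printed.
C130071C03Rik: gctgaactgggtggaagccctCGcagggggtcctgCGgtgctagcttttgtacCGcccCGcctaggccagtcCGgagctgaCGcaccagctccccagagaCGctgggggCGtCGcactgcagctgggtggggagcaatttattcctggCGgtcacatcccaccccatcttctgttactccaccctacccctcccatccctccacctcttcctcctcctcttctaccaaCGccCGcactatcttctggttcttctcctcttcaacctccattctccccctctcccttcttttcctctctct
C130021I20Rik: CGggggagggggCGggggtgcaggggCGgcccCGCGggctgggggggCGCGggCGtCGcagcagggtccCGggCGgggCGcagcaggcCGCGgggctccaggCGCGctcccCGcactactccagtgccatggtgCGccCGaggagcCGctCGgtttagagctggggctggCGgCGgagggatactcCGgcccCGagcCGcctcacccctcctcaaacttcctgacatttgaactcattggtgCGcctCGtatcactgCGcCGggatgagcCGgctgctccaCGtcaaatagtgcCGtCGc
9230117E06Rik: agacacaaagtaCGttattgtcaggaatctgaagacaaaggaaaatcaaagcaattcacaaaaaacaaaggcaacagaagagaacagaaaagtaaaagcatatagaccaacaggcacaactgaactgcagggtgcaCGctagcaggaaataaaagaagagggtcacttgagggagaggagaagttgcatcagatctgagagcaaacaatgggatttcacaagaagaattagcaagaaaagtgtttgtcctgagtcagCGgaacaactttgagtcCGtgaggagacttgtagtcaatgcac
B130006D01Rik: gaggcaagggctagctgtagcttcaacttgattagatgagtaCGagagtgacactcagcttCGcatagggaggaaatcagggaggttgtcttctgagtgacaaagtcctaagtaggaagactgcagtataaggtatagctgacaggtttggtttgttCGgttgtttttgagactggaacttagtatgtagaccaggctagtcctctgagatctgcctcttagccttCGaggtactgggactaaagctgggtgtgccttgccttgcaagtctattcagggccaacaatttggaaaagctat
The motif counted is CG, which reads the same on both strands. These windows hold 12, 34, 4 and 4 CG sites, and 40.2%, 7.49%, 68.1% and 68.1% of the 27025 promoters of the RefSeq table hold as many or more. At least 1 CG is present in 94.2% of all promoters, the median over all promoters is 7 and that over the 1404 members with an entry is 11. CA sites, counted as CA on either strand, number 33, 31, 48 and 38 in the same windows. The 4 windows show no general difference between members with low and with higher mCG. The 15 members with WT mCG under 20% and a promoter entry also had a median of 11 CG sites. Among them, 1700109F18Rik, with WT mCG of 3.94%, had 5.

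C130071C03Rik also contains a microRNA gene, Mir9-2, whose products are abundant in the nervous system. Its mature sequences are shown because the member is described below as their host, with the seed (bases 2 to 8) in capitals. They lie on the plus strand of GRCm38.p6 at chr13:83738821-83738843 and chr13:83738858-83738879, and their seeds differ from each other.
mmu-miR-9-5p: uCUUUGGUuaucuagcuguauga
mmu-miR-9-3p: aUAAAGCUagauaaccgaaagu

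mCA of the Rik gene models was lower in all 4 hKO animals than in all 4 WT animals. The median over members was 2.26%, 2.25%, 2.84% and 2.29% in WT replicates 1 to 4 and 1.24%, 1.26%, 1.52% and 1.18% in hKO replicates 1 to 4, so the groups did not overlap. The mean of these animal medians was 2.41% ± 0.285 (SD, n = 4) in WT and 1.30% ± 0.151 (SD, n = 4) in hKO. WT replicate 3 and hKO replicate 3, both female, were the highest of their groups, and the middle 50% of members ran from 1.74% to 3.82% in the former and from 0.986% to 2.07% in the latter. Without both of these animals, the median over members of the group mean was 2.31% in WT and 1.24% in hKO, against 2.42% and 1.31% with all animals.

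**Figure D1:**
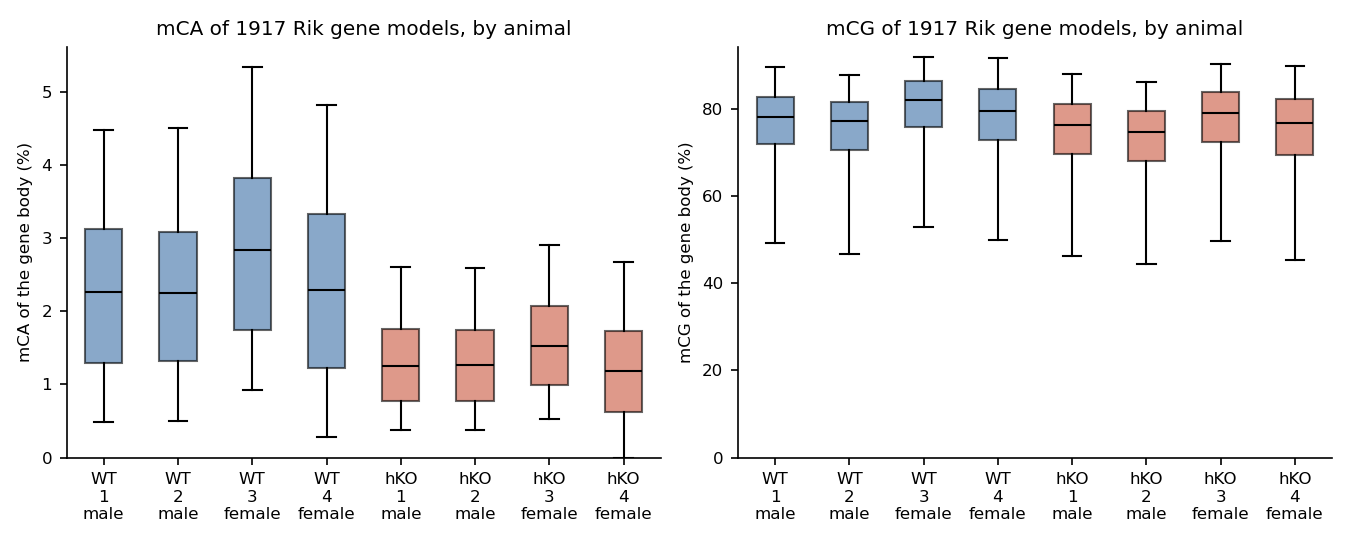
mCA (left) and mCG (right) of the 1917 Rik gene models in each animal, in percent; boxes show the quartiles, the line the median and the whiskers the 5th and 95th percentiles over members. The median mCA of each hKO animal, 1.18% to 1.52%, lies below that of each WT animal, 2.25% to 2.84%, while the mCG medians of the groups overlap.

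Tested across all genes with limma on the percentages, with Benjamini-Hochberg adjustment and a threshold of 0.05, 1462 of 1917 members had lower mCA in hKO and 0 had higher. Over all 21302 genes tested, 72.1% were lower and 0.0329% were higher, and the members' 76.3% is to be read against the first of these shares. By the unadjusted limma p under 0.05, 0 members and 0.0422% of all genes were higher. All 4 hKO values were below all 4 WT values in 1287 members (67.1%), against a background of 64.6% over all genes. The mean was lower in hKO for 1884 members (98.3%), beside 97.6% of all genes. When each library's median over all genes was subtracted first, limma called 28.6% of members lower and 20.5% higher, while 24.8% of all genes were lower and 30.6% higher. The subtraction sets the median gene of every library to 0, so a fall in most genes cannot appear after it. It therefore does not test the call that mCA fell in most members, which is about the absolute level. In the males alone 1236 members (64.5%) were lower and 4 higher, beside 63.4% and 0.253% of all genes. In the females alone 844 members (44.0%) were lower and 3 higher, beside 36.8% and 0.127% of all genes.

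The share of mCA kept in hKO was narrowly distributed. Over members, the hKO mean was a median 55.9% of the WT mean, with quartiles of 52.1% and 60.4%. Of the 1649 members with a WT mean of at least 1%, 1523 (92.4%) kept between 40% and 70%. Over the 16401 genes with other names the median was 56.6% (quartiles 53.5% and 61.5%), and over the 2738 predicted models named Gm with a number it was 56.6% (51.5% and 65.5%). Divided by the mean of all genes in the same library, which asks whether a gene lost more or less than the rest, mCA differed in 0 members by limma, as in 0.0% of all genes, and the smallest adjusted p of a member was 0.435 (limma). By the unadjusted limma p under 0.05, 87 members (4.54%) were lower and 44 (2.30%) higher on this relative scale, beside 3.38% and 2.93% of all genes. Leaving out WT replicate 4, or taking log2 of the percentage plus 0.1, gave 1 member lower on the relative scale.

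Levels of the Rik gene models stood above those of all genes in every animal. The members' median was 116.4%, 116.7%, 116.5% and 118.9% of the median of all genes in WT replicates 1 to 4. In hKO replicates 1 to 4 it was 111.7%, 114.5%, 114.9% and 116.2%. The members' excess over all genes was thus smaller in each hKO animal than in each WT animal, by a narrow margin between WT replicate 1 and hKO replicate 4.

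**Figure D2:**
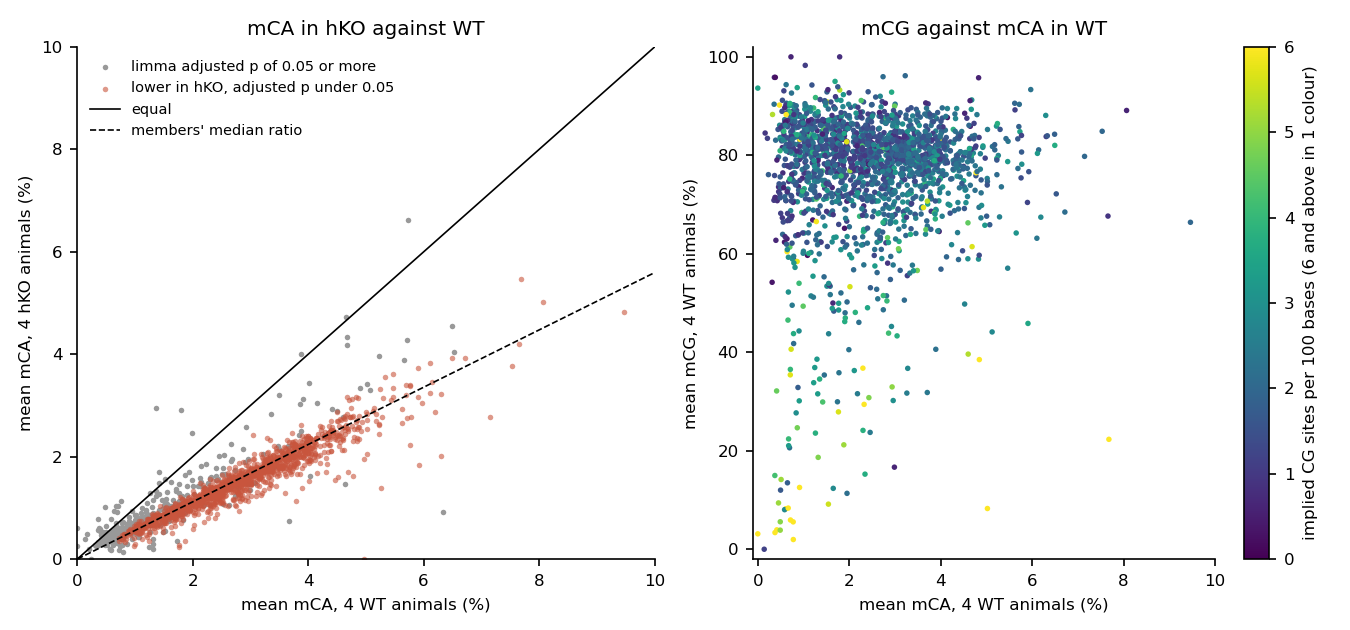
Each point is 1 Rik gene model; left, mean mCA of the 4 hKO animals against that of the 4 WT animals in percent, with lines at equal levels and at the members' median ratio; right, mean WT mCG against mean WT mCA in percent, coloured by the CG density implied by the deposited table. Most points on the left follow the line of the median ratio of 55.9%, and the points on the right with mCG under 20% are mostly CG-dense.

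Levels differed by class among members. In WT, lncRNA members had a median mCA of 2.84% and protein-coding members of 2.09%. By animal, the lncRNA median exceeded the coding median by 0.666, 0.664, 0.882 and 0.726 points in WT replicates 1 to 4 and by 0.324, 0.352, 0.428 and 0.406 points in hKO replicates 1 to 4, so it was higher in 8 of 8 animals. The share kept was 55.5% for lncRNAs and 56.3% for coding members. Of 746 lncRNAs, 603 (80.8%) passed the test as lower, and of 965 coding members 723 (74.9%). The same call was made for 72.1% of all genes and 74.7% of coding genes with ordinary names. Against other names, lncRNAs called Gm with a number had a WT median of 2.89% (777 models), and coding genes with ordinary names had 2.00% (15853 genes). Rik lncRNAs were thus close to Gm lncRNAs, and Rik coding genes to coding genes with ordinary names. Transcribed pseudogenes had the lowest WT median of these 3 classes, 1.60%, with 9 of 22 (40.9%) called lower.

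Clone codes, the first 4 characters of a symbol, mark the cDNA library a clone came from. Of 131 codes, 10 had at least 30 members and held 920 members in all. The largest were 4930 (282 members, WT median mCA 2.55%) and 1700 (251 members, 2.66%), both from adult testis. The lowest of the 10 was code 1810, with 1.43% over 42 members, of which 24 (57.1%) passed as lower, beside 72.1% of all genes. Code 2310 had 1.74% over 64 members and code 2610 had 2.17% over 46 members, with 59.4% kept, the highest share of the 10 codes.

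Testis-derived codes, defined as codes that begin with 17 or with 49 followed by 2 or 3, covered 701 members with a WT median of 2.55%, against 2.30% for the other 1216. This difference was in the coding members: 317 coding members with testis codes had 2.42% and 648 with other codes had 1.84%, while lncRNAs had 2.83% (305 members) and 2.86% (441 members). For coding members the testis codes were higher in each of the 8 animals, with medians of 2.28%, 2.26%, 2.90% and 2.31% against 1.72%, 1.71%, 2.22% and 1.74% in WT replicates 1 to 4. In hKO replicates 1 to 4 the medians were 1.28%, 1.28%, 1.503% and 1.13% against 0.983%, 0.989%, 1.22% and 0.911%. The share kept was 55.8% with testis codes and 56.5% with other codes.

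**Figure D3:**
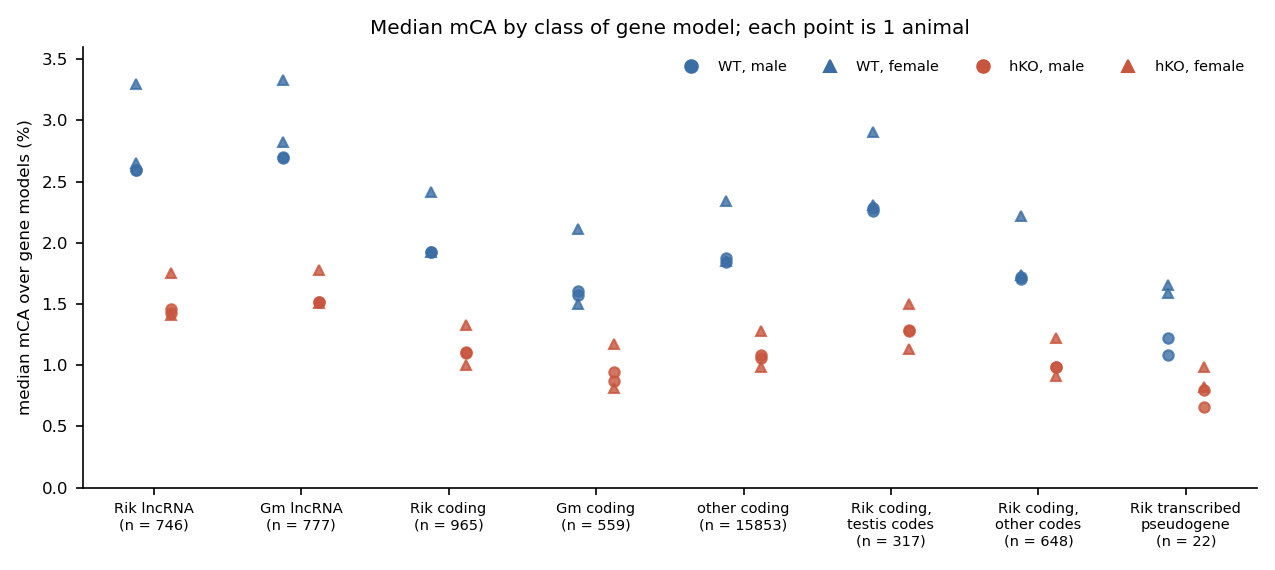
Median mCA over the gene models of each class in percent, with 1 point per animal (circles male, triangles female; blue WT, red hKO) and the number of gene models under each class. The lncRNA classes lie highest, coding members with testis codes lie above those with other codes in every animal, and hKO points lie below WT points in each class.

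Spread and zeros were greatest at low levels. Among members with a WT mean above 3% and up to 4%, the median coefficient of variation (CV, the SD as a percentage of the mean) over the 4 WT animals was 13.9%, and it was 37.1% in members above 0.5% and up to 1%. In the lowest bin, up to 0.5%, it was 71.8% over 39 members. The top bin, above 6%, did not continue the trend: its 17 members had a median CV of 14.9% and 2 of them (11.8%) had a 0, against 1.90% of members above 3% and up to 4%, and all genes in it had a CV of 21.6% and zeros in 8.06%. Over all members the median CV was 17.99%, beside 17.8% for genes with other names and 23.1% for Gm models.

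The share kept in hKO also moved with the level at its lower end. It was a median 54.7% for members above 3% and up to 4%, 58.3% above 1% and up to 1.5%, 66.0% above 0.5% and up to 1%, and 85.6% up to 0.5%. All genes had 55.0%, 58.2%, 65.4% and 89.2% in the same bins. Calls followed: 401 of 420 members passed as lower in the first of these bins, 148 of 230 in the second, 30 of 225 in the third and 0 of 39 in the last. These are 95.5%, 64.3%, 13.3% and 0% of the members, beside 96.0%, 73.6%, 16.2% and 0.225% of all genes in the same bins. The bins and the share kept use the same WT means. A WT mean that is low by noise thus enters a low bin and also raises the share. In the lowest bin 53.8% of members had a 0. How far this enters the rise of the share was not tested.

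**Figure D4:**
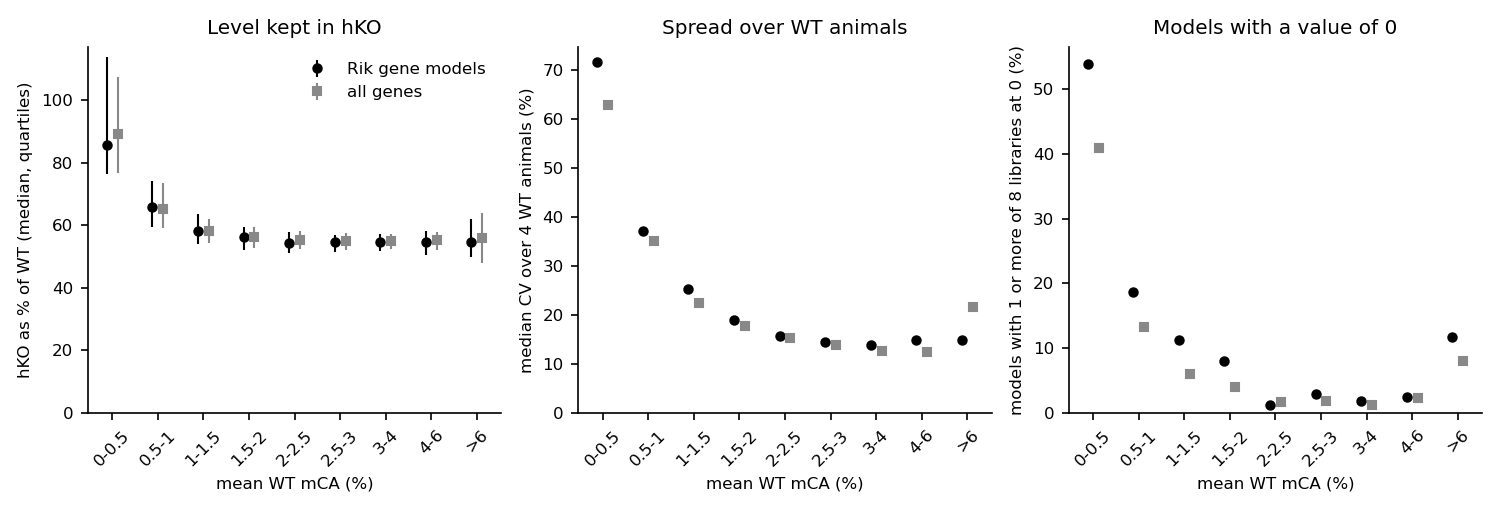
By bins of mean WT mCA (percent), the share of WT mCA kept in hKO (left, median and quartiles over models), the median CV over the 4 WT animals (middle) and the percentage of models with at least 1 library at 0 (right), for Rik gene models (black) and all genes (grey). Above 1.5% the share kept is flat near 55%, and below 1% the share, the CV and the zeros all rise. The bins and the share use the same WT means.

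An mCA value of exactly 0 in at least 1 library occurred in 140 members (7.30%), against 5.24% of genes with other names and 12.4% of Gm models. Of these, 68 were at 0 in a single library. By group, 56 were at 0 in hKO libraries alone, 24 in WT libraries alone and 60 in both. Zeros were unevenly spread over animals: 63 members were at 0 in WT replicate 4 and 106 in hKO replicate 4, both female, and from 6 to 35 in the other 6 libraries. Without a depth per value, a 0 from few cytosines and a 0 from many cannot be told apart. A WT mean of at least 1% was found in 73 members that had a 0. Of the 140 members with a 0, 18 passed the test as lower, beside 1462 of all 1917 members and 72.1% of all genes. A 0 was more frequent in members with a WT mean under 1% (25.0%) than in the others (4.43%). Of these groups, 11.2% and 86.8% passed as lower, so the few calls are in part those of low levels. For mCG, 14 members had a 0 in some library.

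A value of 0 in every animal was seen in both contexts for 1810019D21Rik, a lncRNA gene. For 1010001N08Rik, now Gata6os, the transcript opposite the transcription factor gene Gata6, mCA was 0 in every animal and mCG averaged 3.13% in WT and 3.58% in hKO. Only these 2 members were at 0 for mCA in all 8 libraries, and both were singled out after their values were seen.

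Among members that passed with no overlap between the groups, the largest falls were in 6 gene models, of which 3 are lncRNA genes and 3 are coding genes. B130006D01Rik had mCA of 5.45%, 5.13%, 6.25% and 3.03% in WT replicates 1 to 4 and was listed at 0 in all 4 hKO animals, a difference of -4.97 points (SE 0.569, limma adjusted p = 0.000692). Every WT value was thus above every hKO value. The number of reads behind these values is unknown, so the zeros are not read as a complete loss. Its mCG was 68.8%, 100%, 44.4% and 50% in WT replicates 1 to 4 and 27.3%, 66.7%, 57.1% and 50% in hKO replicates 1 to 4, an overlap that spans most of the scale.

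2810030E01Rik, now Skida1, a coding gene, had the highest WT level of any member. Its mCA was 9.91%, 8.74%, 9.35% and 9.85% in WT replicates 1 to 4 and 4.92%, 5.09%, 5.14% and 4.19% in hKO replicates 1 to 4. The groups were separated by more than 3 points, with a difference of -4.63 points (SE 0.791, limma adjusted p = 0.000927). Its neighbour in the RefSeq gene order, the lncRNA gene A930004D18Rik, had the third highest WT level, with 7.23%, 8.04%, 8.54% and 6.91% in WT replicates 1 to 4. In hKO replicates 1 to 4 it had 4.39%, 5.14%, 5.76% and 6.59%, all below the lowest WT value, and kept 71.2% where Skida1 kept 51.1%. A930004D18Rik passed on the absolute scale (limma adjusted p = 0.0248) but not without hKO replicate 1 (0.0804), hKO replicate 2 (0.0661) or WT replicate 2 (0.0538), and the difference between the shares of these neighbours was not tested.

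9230117E06Rik, a lncRNA gene between Dgkg and Crygs, had mCA of 7.53%, 6.25%, 6.49% and 8.31% in WT replicates 1 to 4 and of 2.28%, 2.49%, 3.09% and 3.26% in hKO replicates 1 to 4. Its highest hKO value was below its lowest WT value by more than its hKO range, and it kept 39.0% (difference -4.36 points, SE 0.535, limma adjusted p = 0.000692). 9230105E05Rik, also a lncRNA gene, went from 7.41%, 7.84%, 5.53% and 4.41% in WT replicates 1 to 4 to 3.23%, 0.725%, 4.11% and 0% in hKO replicates 1 to 4. Here the hKO animals were widely spread and only narrowly below WT replicate 4 (limma adjusted p = 0.00503), and the member did not pass in the females alone (0.0561).

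Among coding members, 4933407P14Rik, now Sppl2c, a signal peptide peptidase-like gene between Crhr1 and Mapt, fell from 5.93% ± 1.46 (SD, n = 4) to 1.83% ± 0.320 (SD, n = 4), with a limma adjusted p = 0.000728. 2210021J22Rik, now Cdpf1, fell from 5.26% ± 1.64 (SD, n = 4) to 1.40% ± 0.243 (SD, n = 4), with a limma adjusted p = 0.00109. These kept 30.9% and 26.6%. With B130006D01Rik, 9230105E05Rik (32.0%) and the lncRNA gene 4932416K20Rik (29.8%, from 3.79% to 1.13%), they are the 5 lowest shares among members that passed with a WT mean of at least 1%. On the relative scale the limma adjusted p was 0.435 for B130006D01Rik and at least 0.774 for the other 4, so none of these lower shares was called different from that of the other genes.

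At the other end, no member passed the test as higher in hKO. The 5 highest shares among members with a WT mean of at least 1% were in 1700010L04Rik, 2410137M14Rik, D030054H15Rik (now AU041480), F630028O10Rik and A130023I24Rik, with 216%, 163%, 123%, 120% and 115% of WT, and their limma adjusted p-values ran from 0.217 to 0.704. The first rests on WT zeros: 1700010L04Rik, a lncRNA gene, was listed at 0 in WT replicates 1, 3 and 4, had 5.45% in WT replicate 2, and had 2.75%, 3.36%, 2.67% and 2.99% in hKO replicates 1 to 4. For the coding gene 2410137M14Rik, WT values ran from 0% to 4.57% and hKO values from 1.59% to 5.88%, so the groups overlapped almost entirely. Of the 1649 members with a WT mean of at least 1%, 10 had an hKO mean that was not lower.

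**Figure D5:**
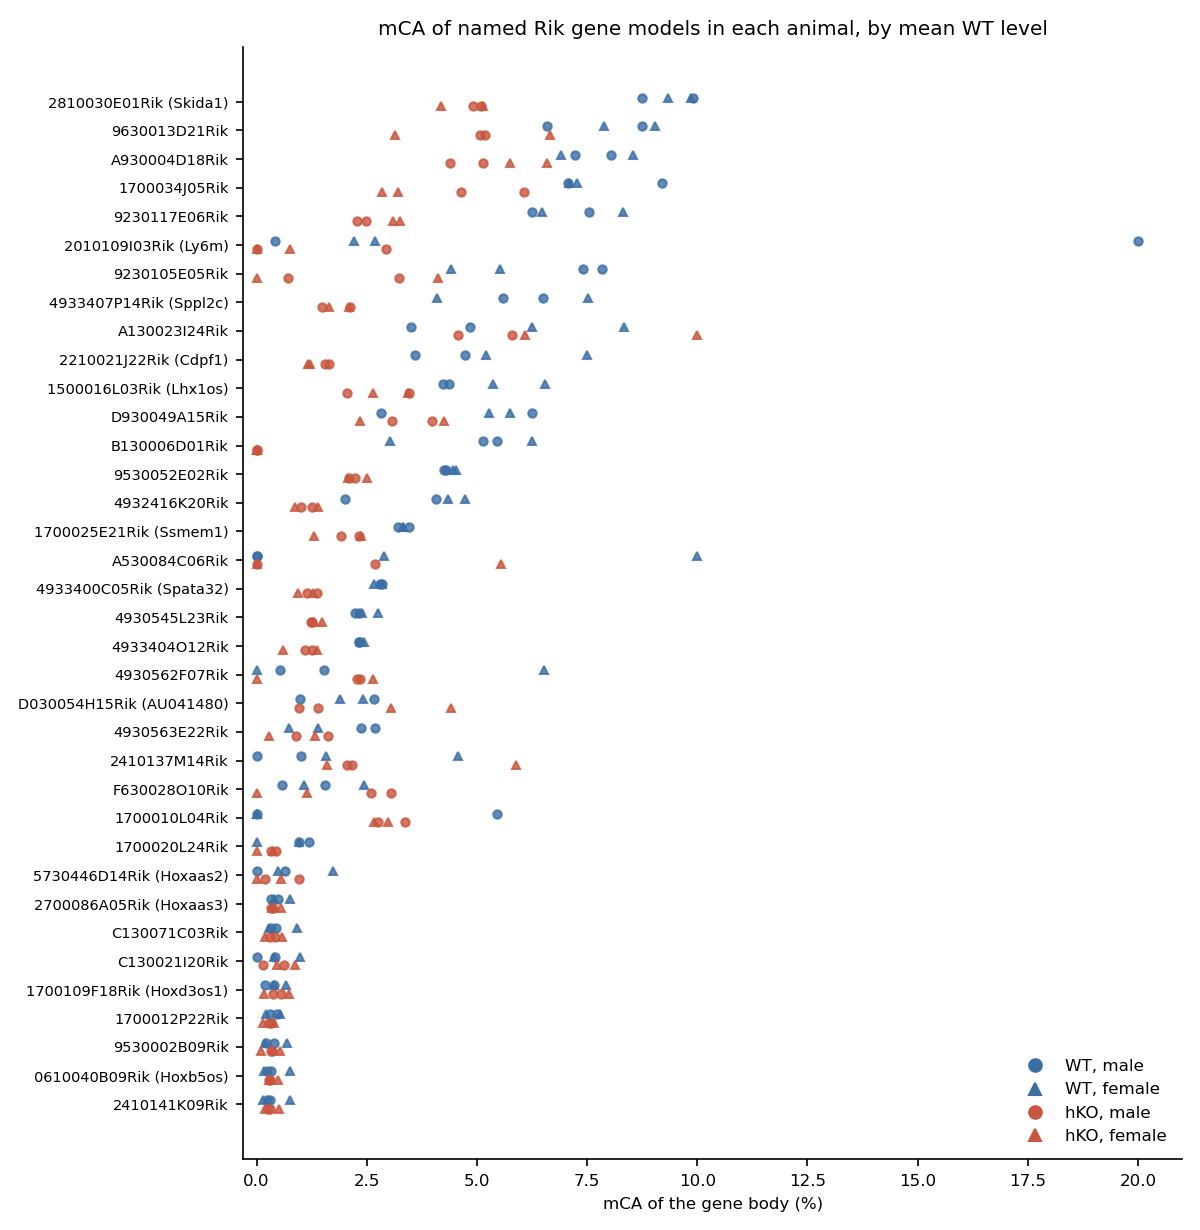
mCA in percent of the named Rik gene models in each animal (circles male, triangles female; blue WT, red hKO), ordered from the highest mean WT level, with the current RefSeq symbol in parentheses where it differs. Members such as 2810030E01Rik and 9530052E02Rik separate the groups completely, while in 1700010L04Rik and 2010109I03Rik a single WT animal lies far above the other WT animals.

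The typical member is shown by 4930545L23Rik, a lncRNA gene next to Plcb1 whose WT mean is the nearest to the members' median among those that passed. Its mCA was 2.22%, 2.33%, 2.75% and 2.39% in WT replicates 1 to 4 and 1.25%, 1.24%, 1.48% and 1.31% in hKO replicates 1 to 4. The groups did not overlap, and it kept 54.5% (difference -1.10 points, SE 0.167, limma adjusted p = 0.000693).

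Replicate spread differed widely at similar levels. The smallest WT CVs among members with a WT mean of at least 1% were in the lncRNA genes 4933404O12Rik (2.38%) and 9530052E02Rik (2.92%) and in the coding genes 4933400C05Rik, now Spata32 (2.98%), and 1700025E21Rik, now Ssmem1 (3.14%). In 9530052E02Rik, which lies next to the insulin receptor substrate gene Irs2, WT replicates 1 to 4 had 4.25%, 4.30%, 4.52% and 4.46% and hKO replicates 1 to 4 had 2.10%, 2.24%, 2.51% and 2.07%. All 4 of these members passed as lower, with shares kept of 45.8%, 50.9%, 42.4% and 59.5%. They were chosen for small WT spread, which also lowers the standard error of the test, so these calls are not a separate result. With a WT mean of at least 1%, 86.8% of all members and 90.4% of genes with other names passed as lower.

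The largest CVs were in 1700010L04Rik (200%), A530084C06Rik (146%), 2010109I03Rik (145%), now Ly6m, and 4930562F07Rik (139%), none of which passed. A large WT spread raises the standard error of the test, so the missing calls follow in part from the choice. 2010109I03Rik had 20.0% in WT replicate 1 and 0.424%, 2.68% and 2.22% in the other WT animals, beside 0%, 2.93%, 0.752% and 0% in hKO replicates 1 to 4. A530084C06Rik had 0%, 0%, 2.90% and 10.0% in WT replicates 1 to 4 and 0%, 2.68%, 5.56% and 0% in hKO replicates 1 to 4. In these members 1 or 2 animals carried most of the WT mean, and no direction is read from them.

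The remaining high levels were in 9630013D21Rik, a lncRNA gene with a WT mean of 8.07% ± 1.10 (SD, n = 4), and in 1700034J05Rik, a coding gene with 7.66% ± 1.03 (SD, n = 4). They kept 62.2% and 54.7% and passed as lower, with limma adjusted p-values of 0.0149 and 0.00524, and the first did not pass without hKO replicate 4 (0.0551). The lowest WT means among members never at 0 were in 2410141K09Rik (0.367%), 0610040B09Rik (0.376%), 9530002B09Rik (0.378%) and 1700012P22Rik (0.378%). Their hKO means were 0.322%, 0.339%, 0.327% and 0.286%, and their limma adjusted p-values, from 0.451 to 0.817, did not pass. WT replicate 3 was the highest WT animal in each of the 4, and without it the first 3 had a higher mean in hKO than in WT. The highest hKO animal in each of the 4 was likewise hKO replicate 3. Without both of these animals, only 2410141K09Rik and 0610040B09Rik had the higher mean in hKO.

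mCG of the Rik gene models was lower on average in hKO, but no member passed. The median over members was 78.2%, 77.3%, 82.0% and 79.7% in WT replicates 1 to 4 and 76.4%, 74.8%, 79.2% and 76.9% in hKO replicates 1 to 4, so the animals overlapped. Replicates 2, 3 and 4 carry the same number in their titles in both genotypes. Within each of these numbers the hKO median was the lower, at 96.8%, 96.5% and 96.5% of WT. The median difference over members was -2.39 points, and -2.18 points over all genes. Limma called 0 members in either direction, as it did in 0.0% of all 21060 genes tested, and the smallest adjusted p of a member was 0.376 (limma). By the unadjusted limma p under 0.05, 233 members (12.2%) were lower and 7 (0.365%) higher, beside 10.1% and 0.337% of all genes. All 4 hKO values were below all 4 WT values in 120 members (6.26%), against a background of 4.94% over all genes.

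The 2 largest falls in mCG among members whose groups did not overlap were in 9230105E05Rik and the coding gene 4930563E22Rik. 9230105E05Rik had mCG of 100%, 77.3%, 81.8% and 93.3% in WT replicates 1 to 4 and 56.5%, 53.3%, 74.1% and 60.0% in hKO replicates 1 to 4 (limma adjusted p = 0.430). 4930563E22Rik had 75%, 69.2%, 72.2% and 70% in WT replicates 1 to 4 and 38.9%, 48.0%, 61.3% and 50% in hKO replicates 1 to 4 (limma adjusted p = 0.376). The mCG difference was larger at higher mCA: its median was -1.04 points in members with WT mCA above 0.5% and up to 1%, -2.95 points above 3% and up to 4%, and -4.04 points above 4% and up to 6%. All genes had -0.882, -2.90 and -3.58 points in these bins.

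Across members, the WT means of mCA and mCG showed no rank correlation, with a Spearman rho of -0.00301 (1917 members, which share the same 8 libraries). This does not exclude a relation in part of the range. Members with WT mCG under 20% had a median WT mCA of 0.613%, against 2.45% for those with more. Dividing the deposited group values of methylation per kilobase by the group's fraction gives a number that is the same in both genotypes for each gene, to within 3.58e-06 of its value, and that has the size of a site density. The table does not define this column, so it is called the implied CG or CA density here and is the authors' value. The implied CG density was a median 1.96 sites per 100 bases of the gene body and the implied CA density 15.2, and WT mCG was lower at higher CG density (rho -0.198 over 1915 members).

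A small group of members had few methylated CG sites. WT mCG was under 20% in 27 members (1.41%, against 1.32% of all genes), between 20% and 50% in 64 members and at least 90% in 65. The implied CG density of the 27 was a median 5.10 per 100 bases, and 20 of them had WT mCA under 1%. Of the 27, 2 (7.41%) passed as lower in mCA, beside 11.2% of all members with WT mCA under 1% and 72.1% of all genes. The members of this group named in the following were singled out after their values were seen.

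Of the 27, 6 carry symbols of developmental regulator loci. They are 0610040B09Rik (now Hoxb5os), 1700109F18Rik (Hoxd3os1), 2700086A05Rik (Hoxaas3), 5730446D14Rik (Hoxaas2), 1010001N08Rik (Gata6os) and 5730457N03Rik (Evx1os), named for the homeobox or GATA gene that they lie opposite or beside. The 4 Hox transcripts had WT mCG of 3.38%, 3.94%, 5.58% and 5.94%, in the order given, and WT mCA of 0.376%, 0.417%, 0.491% and 0.715%. Their hKO mCA was 0.339%, 0.466%, 0.399% and 0.428%, and none passed the limma test (adjusted p from 0.465 to 0.817). 5730457N03Rik was among the exceptions, with mCA of 2.34% in WT and 1.12% in hKO, and it passed as lower.

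C130071C03Rik, the Mir9-2 host whose promoter is among those printed, belongs to the same group. Its mCG was 4.50%, 2.62%, 4.75% and 3.62% in WT replicates 1 to 4 and 3.96%, 2.84%, 2.12% and 4.31% in hKO replicates 1 to 4, so the groups overlapped. Its mCA was 0.430%, 0.333%, 0.919% and 0.281% in WT replicates 1 to 4 and 0.308%, 0.410%, 0.579% and 0.192% in hKO replicates 1 to 4, a difference of -0.119 points (SE 0.158) that did not pass (limma adjusted p = 0.505). C130021I20Rik, whose promoter with 34 CG sites is also printed, had WT mCG of 9.40% ± 4.83 (SD, n = 4) and WT mCA of 0.453% ± 0.403 (SD, n = 4), against hKO mCA of 0.524% ± 0.295 (SD, n = 4). The coding gene 1700020L24Rik had WT mCG of 1.97% at an implied density of 10.2 CG sites per 100 bases.

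Low mCG did not always go with low mCA. D930049A15Rik had WT mCG of 8.27% ± 2.22 (SD, n = 4) and mCA of 6.24%, 2.84%, 5.27% and 5.74% in WT replicates 1 to 4. In hKO replicates 1 to 4 its mCA was 3.07%, 3.99%, 4.26% and 2.35%, which overlaps WT replicate 2 and did not pass (limma adjusted p = 0.0756). A930004D18Rik, described above for its high mCA, had mCG of 22.3% ± 2.90 (SD, n = 4) in WT and 16.9% ± 2.02 (SD, n = 4) in hKO, at 6.66 CG sites per 100 bases. In all, 7 members combined a WT mCA of at least 4% with a WT mCG under 50%.

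Neighbouring genes shared the level but hardly the share kept. WT mCA of a member and the mean of its 2 neighbours in the RefSeq gene order had a Spearman rho of 0.570 over 1706 members, and other genes had 0.529 over 17494 genes. For WT mCG the members' rho was 0.217. The share kept in hKO had a rho of 0.0619 over 1474 members with a WT mCA of at least 1%, and of 0.0274 over other genes. Neighbours can overlap and then share cytosines, and all values come from the same 8 libraries.

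Transcripts named for the gene on the opposite strand allow the same comparison in pairs. For 86 members whose current symbol is that of a measured gene followed by os, the median WT mCA was 2.66%, and it was 2.48% for the partners. The member was the higher in 43 of the 86 pairs, rho was 0.580, and the share kept was a median 55.8% for members and 56.1% for partners. The pair differed by more than 2 points in 7 cases. 1500016L03Rik (now Lhx1os) had a WT mean of 5.13% and fell to 2.89% in hKO, with a limma adjusted p = 0.00582, while its partner Lhx1, a LIM homeobox gene, had 0.343% and 0.272%. Hoxb5os (0610040B09Rik) had 0.376%, while Hoxb5 had 15.5%, with 16.5%, 15.3%, 12.9% and 17.3% in WT replicates 1 to 4 and 6.19%, 10.2%, 9.52% and 17.02% in hKO replicates 1 to 4. WT mCG was 3.38% in Hoxb5os and 76.2% in Hoxb5. The hKO values of Hoxb5 were widely spread and overlapped WT. The depth behind them is unknown, so no contrast of strands is read from this pair. Bisulfite reads carry the strand, but the sources used here do not say whether the gene values were counted on 1 strand or both.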

How the data were processed

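Gene-body methylation was taken from the deposited table of the 8 deep cortex libraries; the shallow libraries, which have no value per gene, were not used here. Per the submitters' processing notes, BS-Seeker2, bedtools and the mm9 genome were used; their versions and any coverage minimum are not given in the sources used here. The authors' deposited values are the fraction of cytosines called methylated per gene and library; these fractions were multiplied by 100. The authors' group columns of methylation per kilobase hold other values that the table does not define and were used only for implied site densities. No conversion correction was applied.

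Groups came from the labels. Genes with values in all 8 libraries were fitted with limma 3.58.1 in R 4.3.3 (eBayes with trend) on the percentages, 21302 genes for mCA and 21060 for mCG, with Benjamini-Hochberg adjustment over all of them; the method was tested on simulated data. Levels by class, clone code, level and neighbour were described without a test, in Python 3.11.15. Named members followed a rule: largest falls and lowest shares with groups that do not overlap, highest shares, highest and lowest levels, largest and smallest spread, largest mCG falls, the microRNA host and the member nearest the median; others are said to be chosen after their values were seen. The members and lists were chosen with earlier results of these data known. Symbols were matched to RefSeq by name or unique synonym; promoters and microRNAs are from RefSeq GRCm38.p6. Alternatives were each library left out, a replicate block, sex, other scales and filters, and, chosen after seeing the data, both replicates 3 left out.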

Additional observations from a re-analysis of the deposited data

Results flagged for a closer look

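The values below stood apart from the other 3 animals of their group by more than Dixon's 95% critical value for 4 samples. Of 82 groups examined, 7 did so. Chance alone gives about 5% of groups that were not chosen by their values. Most groups here are of named genes, some chosen for large spread or extreme shares, so the 7 cannot be compared with that 5%. The median mCA over all Rik gene models was highest in WT replicate 3, at 2.84%, with the other WT animals at 2.25% to 2.29%. Over single members, 136 of 1917 had a WT animal apart in this sense, and in 112 of them it was WT replicate 3 on the high side. Of 133 members with an hKO animal apart, 79 had hKO replicate 3 on the high side. Both animals are female and carry the same number in their titles.

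1700010L04Rik had 5.45% in WT replicate 2 and 0 in the other WT animals. 2410137M14Rik had 5.88% in hKO replicate 4, and its other hKO animals had 1.59% to 2.16%. 1700034J05Rik had 9.20% in WT replicate 1, above 7.07% to 7.27% in the rest. 0610040B09Rik had 0.488% in hKO replicate 3, above 0.275% to 0.300% in the rest. 2010109I03Rik had 20.0% in WT replicate 1. 4930562F07Rik was at 0 in hKO replicate 4, below 2.27% to 2.63% in the rest.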

How the results depend on the processing

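In mCA, 76.3% of members were called lower and 0 members higher. Leaving out 1 library at a time gave 68.3% to 78.6% lower and 0 to 1 members higher. The females alone gave 44.0% lower and 3 members higher, the males alone 64.5% and 4, and subtracting each library's median 28.6% and 393. The logit scale, and leaving out both replicates 3, each gave 1 higher. For relative mCA, leaving out 1 library gave 0 to 1 lower, and the log2 scale gave 1. mCG gave 0 members in either direction under each alternative run. With the number in the titles as a replicate block, 1483 members were lower and 2 higher in mCA, and 0 were called in mCG and in relative mCA. The replicates 1 carry numbers of their own (694 in hKO, 695 in WT), so they do not inform the difference in this fit. It rests on replicates 2, 3 and 4 of each genotype and is not a paired fit of all 8 animals. Over genes, the deviations of same-numbered animals had small positive correlations (0.0841, 0.0370 and 0.114 in mCA, and 0.0845, 0.12 and 0.0858 in mCG). Such a correlation does not see a shift that is equal for all genes, so it cannot decide whether the numbers mark pairs. The members' median mCG ranked the replicates in the same order in both genotypes. The labels do not say what a number marks, and the main test leaves the animals unpaired. With the block, 513 members were lower in mCG by the unadjusted limma p, against 233 without it. Over all 21060 genes these counts were 5855 and 2124. The members' median mCG was lower in the hKO animal of each of the 3 numbers. The median share kept ran from 52.8% to 59.4% with 1 library left out and from 54.2% to 57.4% over the other alternatives.

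Of 41 results of named genes, 17 passed; over 715 alternative fits 629 kept their direction and side of the threshold, 20 lost the call, 19 gained it and 47 changed direction. With library medians subtracted, the differences became positive for 2410141K09Rik (0.866 points), 0610040B09Rik (0.874), 9530002B09Rik (0.860), 1700012P22Rik (0.819), 4930562F07Rik (0.574), 4930563E22Rik (0.154), C130071C03Rik (0.792), Dnmt3a (0.425), 2700086A05Rik (0.819), 5730446D14Rik (0.624) and 1700020L24Rik (0.416). In the males alone they turned for D030054H15Rik (-0.644), 2410141K09Rik (0.00759), 0610040B09Rik (0.0084), 9530002B09Rik (0.0311), A530084C06Rik (1.34), 4930562F07Rik (1.27) and 5730446D14Rik (0.249), and in the females alone for F630028O10Rik (-1.19), 1700109F18Rik (-0.0801) and C130021I20Rik (-0.0299). Without both replicates 3 they turned for 2410141K09Rik (0.0218), 0610040B09Rik (0.0436), 4930562F07Rik (0.848) and 5730446D14Rik (0.00527), and on the logit scale, in log2 units, for F630028O10Rik (-0.42), 0610040B09Rik (0.0103) and 4930562F07Rik (0.295). With the replicate block they turned for F630028O10Rik (-0.121) and C130021I20Rik (-0.110). With 1 library left out, the differences ran from -0.184 to 0.966 for D030054H15Rik, -0.170 to 0.843 for F630028O10Rik, -0.243 to 1.75 for A130023I24Rik, -0.118 to 0.0866 for 2410141K09Rik, -0.109 to 0.0933 for 0610040B09Rik, -0.118 to 0.0555 for 9530002B09Rik, -2.33 to 1.09 for A530084C06Rik, -1.05 to 1.12 for 4930562F07Rik, -0.189 to 0.0240 for C130071C03Rik, -0.0434 to 0.148 for 1700109F18Rik, -0.526 to 0.0510 for 5730446D14Rik and -0.0802 to 0.247 for C130021I20Rik. Of the genes that changed direction, only Dnmt3a had passed the test with all libraries, and it turned only with library medians subtracted. That subtraction turns any fall of fewer points than the fall in the library medians. In 1 sex alone the call was lost for 4932416K20Rik, 1700034J05Rik and 1500016L03Rik (males), for 9230105E05Rik, A930004D18Rik and Dnmt3a (females) and for 9630013D21Rik in each sex. The cause was not tested. Depth per value is unknown, so how far it limits the low members cannot be given.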

Other observations

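Members without a RefSeq match, 170 models that a newer annotation no longer lists under the clone name, had a median WT mCA of 2.53% and kept 55.9%. Of these, 117 (68.8%) passed as lower, against 77.3% of members that kept the clone name, 76.7% of those renamed and 72.1% of all genes. Members that kept the clone name had 2.57%, and those with a new name had 2.19%. A library at 0 was found in 11.2% of the unmatched members, in 7.03% of those that kept the name and in 6.57% of those renamed.

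The number of CG sites in the promoter window went weakly with the gene-body level, with a Spearman rho of -0.160 between it and WT mCA over 1404 members that share the same libraries. Of the 27 members with WT mCG under 20%, 15 had a promoter entry, and their median of 11 CG sites was that of all members with an entry.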
